A study of Mus musculus with 14 samples.

Results

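Members of the Sox family of transcription factors were followed in the developing mouse hindbrain, through cells sorted by a reporter of the Atoh1 lineage. The 8 genes were Sox1, Sox2, Sox3, Sox4, Sox9, Sox10, Sox11 and Sox21. They were taken by gene symbol from the list of measured genes, which made 8 of 31054 genes in each of 14 single-cell RNA sequencing (scRNA-seq) libraries. Hindbrains were collected at E14.5 and E18.5 from Atoh1Cre/+; Rosa lsl-tdTomato/+ embryos (control) and from Atoh1Cre/S193A; Rosa lsl-tdTomato/+ littermates (Atoh1S193A/-), with 3 libraries per genotype and stage and 1 embryo per library, all on a C57BL/6J background. In both genotypes, the Cre knock-in replaced 1 copy of Atoh1, and the other copy was wild type in control embryos and carried the hypomorphic S193A change, which replaces a serine of the protein with alanine, in Atoh1S193A/- embryos. Libraries with the same replicate number came from the same litter. At P5, labeled cells of the dissected pontine nuclei (PN), pooled over several control pups, gave 2 libraries. Live TdTom+ cells were sorted at all stages. The reporter is meant to mark cells whose ancestors had expressed Atoh1 from the Cre allele, whatever the cell had since become.

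Sox proteins bind DNA through a high-mobility-group box and act with partner factors such as the POU proteins. Sox1, Sox2 and Sox3 (the SoxB1 group) hold neural progenitors in an undifferentiated state, and Sox21 of the related SoxB2 group opposes them. Sox9 acts in ventricular progenitors and in the switch to gliogenesis, Sox10 in the oligodendrocyte lineage and the neural crest, and Sox4 and Sox11 (the SoxC group) turn on neuronal genes in newborn neurons. Atoh1 itself is the proneural factor of the rhombic lip, the dorsal hindbrain epithelium that gives rise to PN neurons, cerebellar granule cells and other neurons.

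Of the 8 genes, Sox1, Sox2, Sox3, Sox4, Sox11 and Sox21 have a single exon in GENCODE M21 on GRCm38, whereas Sox9 has 3 exons and Sox10 has 5. Sox2 lies on chromosome 3 (34650405 to 34652461, plus strand), Sox1 on chromosome 8 (12395295 to 12400126, plus strand), Sox3 on chromosome X (60891366 to 60893430, minus strand) and Sox21 on chromosome 14 (118233232 to 118237030, minus strand). Sox9 lies on chromosome 11 (112782224 to 112787760, plus strand) and Sox10 on chromosome 15 (79154908 to 79165240, minus strand). The SoxC genes lie on chromosome 13 (Sox4, 28948919 to 28953713, minus strand) and chromosome 12 (Sox11, 27334264 to 27342574, minus strand). Antisense genes overlap Sox4 (Gm26735) and Sox21 (Gm4675) and were counted as genes of their own in the files. RefSeq promoter sequences were matched for 5 of the 8 members, and the 250 bases before the start were searched on both strands for CAGCTG, an E-box of the kind that Atoh1 and other basic helix-loop-helix factors bind. It stood once before Sox4 and once before Sox11, both of the SoxC group, and not before Sox1, Sox2 or Sox21. Of 27025 promoters, 12.77% held it, and the related CAGATG, which 14.48% held, was in none of the 5. Of the bases searched for Sox1, 224 lie inside its GENCODE gene. The 2 sequences that hold it are shown here (GRCm38.p6, 5' to 3', the E-box in capitals), Sox4 at chr13:28953714-28953949 on the minus strand without the 14 bases that lie inside its GENCODE transcript, and Sox11 at chr12:27342719-27342968 on the minus strand.
Sox4: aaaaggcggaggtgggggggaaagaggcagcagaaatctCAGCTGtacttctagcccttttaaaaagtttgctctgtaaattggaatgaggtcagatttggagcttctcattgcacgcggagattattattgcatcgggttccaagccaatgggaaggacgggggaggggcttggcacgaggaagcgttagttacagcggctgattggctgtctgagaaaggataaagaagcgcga
Sox11: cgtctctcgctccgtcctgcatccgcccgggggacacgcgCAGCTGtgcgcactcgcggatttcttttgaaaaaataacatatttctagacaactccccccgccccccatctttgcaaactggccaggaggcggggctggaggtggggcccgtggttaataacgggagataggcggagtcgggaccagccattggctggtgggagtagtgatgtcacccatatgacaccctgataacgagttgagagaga
The E-box began 211 bases before the RefSeq start of Sox4 and 210 bases before that of Sox11. A match of letters is a description, and no binding was measured in these libraries.

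Over all libraries, 80250 of 150188 barcodes (53.4%) were kept as cells, between 3248 and 8726 per library, with 12766 to 24102 unique molecular identifiers (UMIs) per kept cell. Kept cells had at most 5% mitochondrial UMIs, a limit near the library medians (3.25% to 5.09%). A limit of 10% kept 5926 in place of 3248 cells in E14.5 control library 1, and 7680 in place of 6913 in E14.5 Atoh1S193A/- library 2. Classes and their shares were not computed at 10%. The libraries held 108239001 to 236964126 UMIs in all. Levels are given in CPM, a gene's UMIs per 1000000 UMIs summed over the kept cells concerned, and a count of 3 UMIs over a whole library, the floor used here, corresponded to 0.0162 to 0.05 CPM. The labels call the cells neurons, but the markers also showed dividing and ventricular progenitors, choroid plexus, glia and microglia, and at P5 8250 of 14006 cells were Hox-positive neurons high in Mapt. Microglia-like cells made up 7.93% and 8.28% of the kept cells in P5 libraries 1 and 2. Whether each class of the sorted cells, glia included, descended from cells that had expressed Atoh1 was not tested. At most 67 barcodes (0.624% of the smaller library) were shared between any 2 libraries. At E14.5, control libraries 1 and 2 were made with another Cell Ranger version (3.1.0) than the other 12 libraries (5.0.1). The version was thus split between genotypes at that stage, and among controls it ran partly with stage. By Xist, control libraries 1 and 3 and Atoh1S193A/- library 3 of E14.5 came from female embryos, so 1 littermate pair differed in sex. Atoh1 was measured at 137, 55.0 and 57.5 CPM in E14.5 control and 144, 86.2 and 100.3 CPM in E14.5 Atoh1S193A/- libraries, which says little on a point mutation.

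Cells of each stage were clustered without the Sox genes and the listed partners and targets, and clusters were grouped into classes by mean levels of marker genes. Classes called Hox-positive had at least 50 CPM of Hoxb3, a gene of the caudal hindbrain, dividing classes had at least 100 CPM of Top2a, and neurons were called Mapt-low from 100 CPM and Mapt-high from 1000 CPM of Mapt, a microtubule gene of maturing neurons. Atoh1-high cells had at least 400 CPM of Atoh1. Clusters that fitted no other class were named dividing or non-dividing Atoh1-positive by Top2a alone. No limit of Atoh1 was set for them, so the name does not show that these cells expressed Atoh1. Levels by class are descriptions over libraries, without a test.

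Sox2 and Sox9 were found in several progenitor classes. At E14.5, Sox2 in control was 445 ± 35.8 CPM (SD, n = 3) in Hox-negative ventricular progenitor-like cells, led by Fabp7, Aldoc and Ednrb. It was 345 ± 33.8 CPM in the Hox-positive ones, led by Ccnd1, Pla2g7 and Fgf15. Roof plate-like cells had 238 ± 23.7 CPM of Sox2 and Hox-positive cells with high Atoh1 had 214 ± 34.0 CPM. The values of the last pair of classes overlapped between libraries and those of the others did not. In Mapt-high neurons Sox2 was down to 1.83 CPM (Hox-negative). Sox9 had its highest level in choroid plexus-like cells (427 ± 62.0 CPM), overlapping that of Hox-negative ventricular progenitor-like cells (397 ± 34.5 CPM), followed by the Hox-positive ones (280.5 ± 73.9 CPM) and the roof plate (236 ± 13.8 CPM), which overlapped. In contrast to Sox2, Sox9 was only 43.3 ± 7.70 CPM in Atoh1-high cells.

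Sox1, Sox3 and Sox21 were much narrower. Sox1 reached 78.3 ± 12.4 CPM in Hox-negative ventricular progenitor-like cells, where libraries held 69.5 to 92.4 CPM, against 22.4 ± 12.1 CPM in inhibitory neuron-like cells and 3.64 ± 0.303 CPM in Hox-positive ventricular progenitor-like cells. Sox21 was likewise at 133 ± 22.1 CPM in the Hox-negative progenitors and at 26.6 ± 10.3 CPM in inhibitory neuron-like cells, whereas every other class compared had a mean of at most 1.35 CPM. Sox3 was at 77.1 ± 6.26 CPM in the Hox-negative progenitors, at 21.9 ± 1.60 CPM in the roof plate and at 9.69 ± 2.78 CPM in dividing Atoh1-positive cells. Both ventricular classes thus held Sox2 and Sox9, and they stood far apart in Sox1, Sox3 and Sox21. The 3 control libraries did not overlap between these classes for any of the 3 genes.

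By E18.5, among classes with at least 10 cells in each library, all 5 of these genes had their highest level in a few glial cells with high Slc1a3 (106 control cells in 3 libraries), with 48.9 ± 11.3 CPM of Sox1, 579 ± 60.9 CPM of Sox2, 26.8 ± 7.42 CPM of Sox3, 453 ± 72.4 CPM of Sox9 and 85.7 ± 48.4 CPM of Sox21. Sox9 was also at 89.8 ± 2.96 CPM in dividing and 82.7 ± 8.89 CPM in non-dividing Atoh1-positive cells, which overlapped. The dividing Atoh1-positive class was not uniform. Sox1 was at 7.49, 6.90 and 6.72 CPM in the control cells of the clusters led by Top2a and Ccnd1, by Ung and Mcm3, and by Ccnb2 with Ccnd1, but at 0.191 and 0.395 CPM in those led by Nts and Prc1 and by Cenpa with Mgarp. It was at 1.06 CPM in the cluster led by Tlx3 and Fgf8 and at 22.8 CPM in a small one led by Pvalb and Pdlim3 (38 control cells). Sox3 was at 4.56 and 2.37 CPM in the Nts-led and Cenpa-led clusters, where Sox1 was lowest, and at 0.722, 1.33 and 0.345 CPM in the first 3. In the Tlx3-led and Pvalb-led clusters it was at 0.905 and 1.2 CPM, so the genes did not follow opposite orders over the whole class. The Nts-led and Cenpa-led clusters also had Eomes, a factor of the unipolar brush cell lineage. Its level there was 179 and 172 CPM over both genotypes, against 15 to 16 CPM in the first 3. In the unipolar brush cell-like clusters, however, Sox3 was at only 0.504, 0.395 and 0.261 CPM in control cells.

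Sox4 and Sox11 were highest in neurons. At E14.5, Sox11 was highest in Mapt-low Hox-positive neurons (4491 ± 223 CPM), overlapped by Mapt-low Hox-negative neurons (3367 ± 1572 CPM), was at 3069 ± 271 CPM in Atoh1-high cells and stood at 2464 ± 126 CPM in Mapt-high Hox-positive neurons, and the 3 libraries of the Hox-positive classes did not overlap. Sox4 was 1977 ± 56.4 CPM in Mapt-low and 1919 ± 47.1 CPM in Mapt-high Hox-positive neurons, with overlapping libraries. Of the classes with at least 10 cells in each library, both were lowest in choroid plexus-like cells (187 CPM of Sox4 and 287 CPM of Sox11). At E18.5, Sox11 again peaked in Mapt-low Hox-positive neurons (4397 ± 202 CPM). Sox4 was highest in unipolar brush cell-like cells (2467 ± 142 CPM), glutamatergic interneurons of the cerebellar system that express Eomes, Lmx1a and Otx2. Sox11 was at only 690 ± 20.8 CPM there. Over pooled control cells, Sox4 was at 3621 CPM in the Calb2-led cluster of that class. It was at 2105 CPM in the Tac2-led and 2055 CPM in the Bcl11b-led cluster, below Mapt-low Hox-positive neurons (2286 CPM). In Mapt-high Hox-positive neurons of the E18.5 hindbrain, Sox4 and Sox11 were at 1511 and 1938 CPM over pooled control cells. In that class of the dissected PN at P5, they were at 392 ± 27.5 and 370 ± 9.57 CPM (n = 2). At P5, Sox4 was highest in unipolar brush cell-like cells (1231 and 1321 CPM). Sox11 was at 299 and 893 CPM in that class, overlapping Mapt-high Hox-positive neurons, which led at a clustering resolution of 2.0. Dividing Atoh1-positive cells, not ranked because library 1 held only 4 of them, had 1107 CPM of Sox11 in library 2. The unipolar brush cell-like class of P5 is one in which 1 cluster came almost wholly from 1 library and which was also led by Neurod1 and Cbln1. Across the 35 control class means of all stages, the log2 levels of Sox4 and Sox11 had a Pearson correlation of 0.831, Sox1 and Sox21 of 0.857, Sox2 and Sox3 of 0.827 and Sox2 and Sox9 of 0.785. These points share libraries, and some are of classes with under 10 cells in a library, such as microglia-like cells at E14.5 (1, 1 and 5 control cells). The correlations are therefore descriptions.

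**Figure D1:**
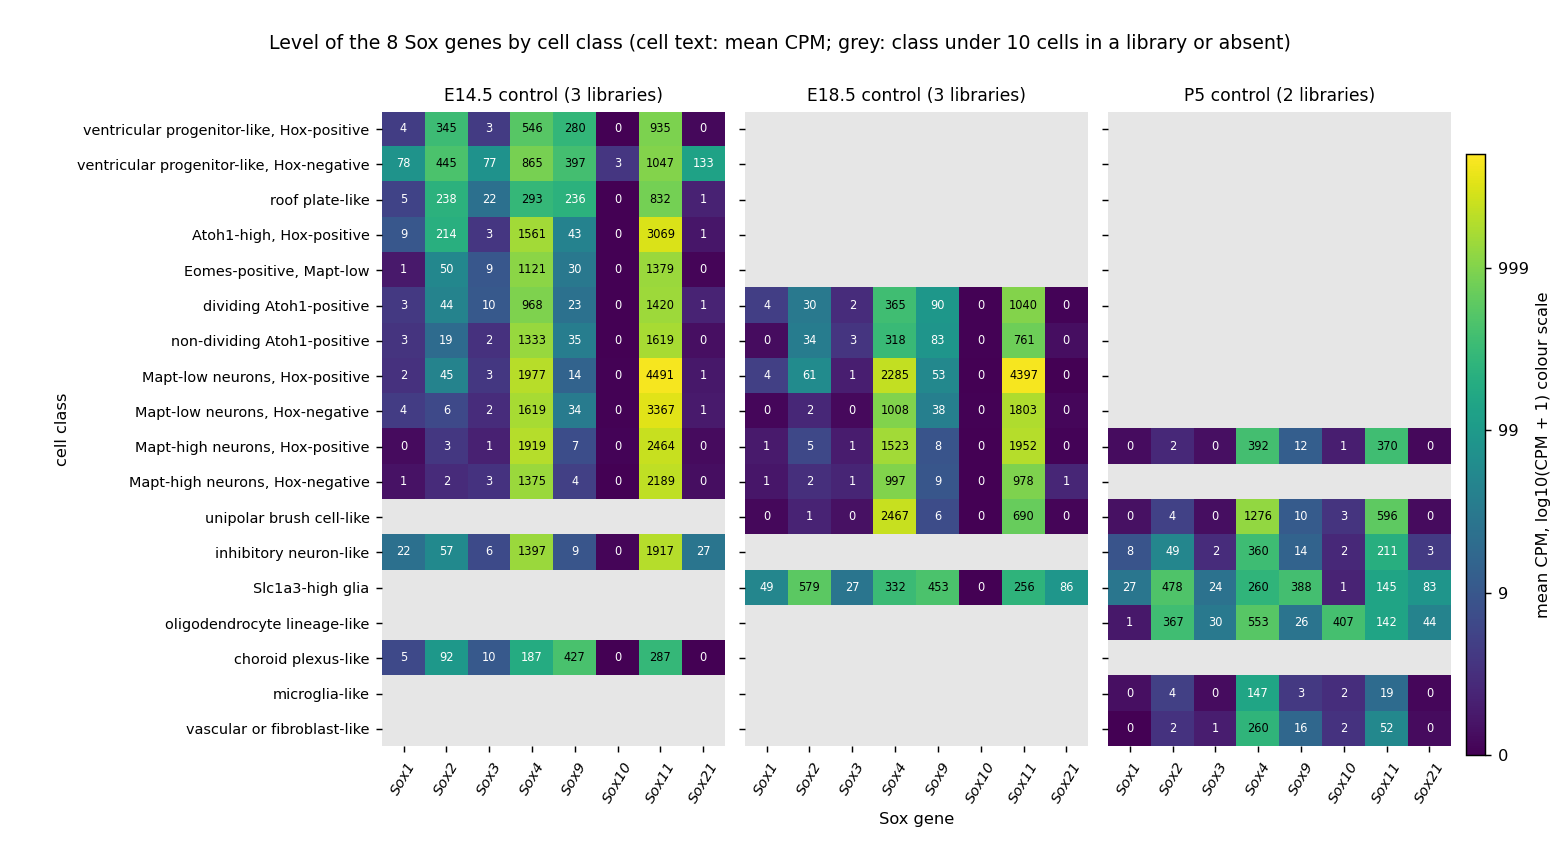
Control mean level of each Sox gene (CPM, printed in each field, with a log10 color scale of CPM plus 1 that runs from dark for low to yellow for high) by class of cells at E14.5, E18.5 and P5, where grey marks classes with under 10 cells in a library or absent. Sox1, Sox3 and Sox21 stood high in Hox-negative ventricular progenitor-like cells (78.3, 77.1 and 133 CPM) and in glia, Sox2 and Sox9 extended to the Hox-positive progenitors and the roof plate, Sox4 and Sox11 stood high in neurons, and Sox10 in the oligodendrocyte lineage at P5 (407 CPM).

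To compare cells of different depth, each cell was thinned to 3000 UMIs, which left out 1407 shallower cells. Sox2 was then detected in 60.2% to 68.4% of Hox-negative ventricular progenitor-like cells of the E14.5 control libraries. In Mapt-high Hox-positive neurons the share was 0.321% to 0.743%, taken here as a background, although RNA free in the droplets was not measured. Sox11 was detected in 96.1% to 99.4% of Mapt-low Hox-positive neurons. Sox21 was seen in 21.1% to 36.6% and Sox1 in 14.7% to 23.0% of the Hox-negative progenitors. Without thinning, Sox2 was found in 87.5% to 91.0% of these progenitors.

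Sox10 was high at P5 and close to the floor in embryos. Over all kept cells, it was at most 0.3 CPM in any embryonic library, with the highest class mean in Hox-negative ventricular progenitor-like cells at E14.5 (2.86 ± 3.04 CPM, from 12, 2 and 1 UMIs in control libraries 1, 2 and 3). At P5, it was at 33.6 CPM in library 1 and 15.8 CPM in library 2. In oligodendrocyte lineage-like cells (1087 and 343 cells), it was at 446 and 369 CPM. Thinned to 3000 UMIs, 69.1% and 60.3% of these cells had a Sox10 UMI, against 0.670% and 0% of Mapt-high neurons (0 of 3143 thinned cells allows a share of up to 0.0955% with a UMI in that library, for counting error only). This does not limit the cells that express the gene, and without thinning 4.98% and 0.698% of these neurons had a Sox10 UMI.

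The oligodendrocyte lineage-like clusters of P5 were separated by their Sox genes, which had no part in the clustering. Cells led by Pdgfra, Olig1 and C1ql1, genes of oligodendrocyte precursors, had Sox3 at 83.1 and 91.9 CPM and Sox9 at 101 and 77.1 CPM in libraries 1 and 2, together with Sox10 at 345 and 284 CPM and Sox11 at 367 and 348 CPM. Cells led by Bcas1, S100a13 and Enpp6, genes of newly formed oligodendrocytes, had less Sox3 (18.1 and 20 CPM) and little Sox9 (3.71 and 2.78 CPM), but more Sox2 (568 and 684 CPM, against 281 and 272 CPM in the precursors) and high Sox4 (859 and 940 CPM). In cells led by Mag and Cldn11, genes of myelin, Sox3 was at 0 and 0.489 CPM and Sox9 at 1.36 and 1.96 CPM, whereas Sox10 was at 537 and 397 CPM. In the last cluster, led by Mobp and Mbp (178 and 57 cells), which had few UMIs per cell, Sox10 was at 97.3 and 92.9 CPM, Sox2 at 20.6 and 48.9 CPM and Sox9 at 3.74 and 9.78 CPM (2 UMIs in each library). For Sox2, Sox3 and Sox9 the libraries of the Pdgfra-led, Bcas1-led and Mag-led clusters did not overlap. Astrocyte-type glia led by Aqp4, Fabp7 and Id3 had Sox9 at 427 and 350 CPM, Sox2 at 477 and 478 CPM and Sox1 at 26.1 and 28.3 CPM, with Sox10 at 2.26 and 0.404 CPM. With 2 libraries of 1 genotype, no test was made at P5.

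**Figure D2:**
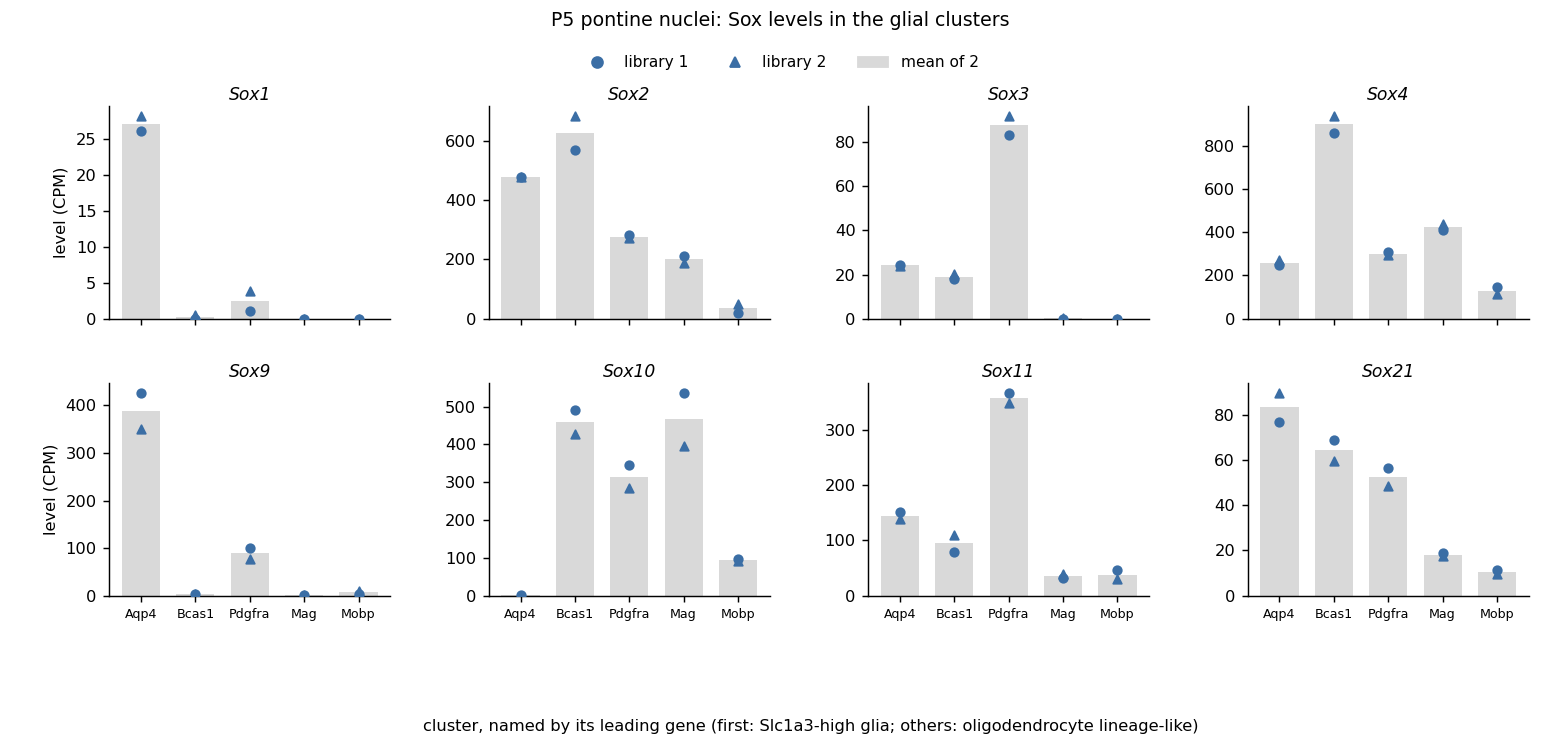
Level of each Sox gene (CPM, linear axis from 0) in the 5 glial clusters of the P5 controls, each named by its leading gene, with a circle for library 1, a triangle for library 2 and a grey bar for their mean. Sox3 was high in the Pdgfra-led cluster (83.1 and 91.9 CPM) and low in the Mag-led cluster, where Sox10 was at 537 and 397 CPM.

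To ask how the Sox genes differed between the embryonic stages, UMIs were summed per library, and the control libraries of E18.5 were compared with those of E14.5 by the quasi-likelihood test of edgeR (called at an adjusted p below 0.05 and an absolute log2 change above 0.25). In such sums, fewer cells of a type and less RNA per cell cannot be told apart, and stage cannot be told apart from dissection and library batch. Of 7 members tested (Sox10 was too low), 6 were called and all 6 were lower at E18.5, where 23.0% of all 17247 genes were called lower and 45.7% called in either direction. Sox21 went from 5.85, 4.00 and 3.12 CPM to 0.348, 0.941 and 1.2 CPM, and the log2 change was -2.46 ± 0.44 (SE, edgeR adjusted p = 0.00328). Sox2 went from 73.9, 43.3 and 41.6 CPM to 19.0, 21.1 and 21.0 CPM (-1.45 ± 0.21, edgeR adjusted p = 0.00134). For both genes each E18.5 library lay below each E14.5 library. Sox3 fell by 1.84, Sox1 by 1.17, Sox11 by 1.01 and Sox4 by 0.81 on the log2 scale. Without E14.5 control library 1 the change of Sox1 was smaller (-0.66, edgeR adjusted p = 0.0273), and its call was lost without any 1 of the E18.5 libraries (edgeR adjusted p = 0.0611 to 0.0863). Sox9 was the exception, with 56.4, 32.4 and 36.5 CPM at E14.5 and 54.7, 53.8 and 52.3 CPM at E18.5 (0.29 ± 0.18, edgeR adjusted p = 0.221). This rested on E14.5 control library 1, without which Sox9 was called higher (0.51, edgeR adjusted p = 0.00524).

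Within classes found at both stages, 20 of 32 pairs of a member and a class were called (6 higher and 14 lower), and 37.0% of all pairs were (18.4% higher and 18.6% lower). A class held different clusters at each stage, so these values do not follow the same cells. Dividing Atoh1-positive cells were 1 cluster at E14.5, led by Pclaf, and 7 at E18.5, and Mapt-high Hox-negative neurons were 7 clusters and then 6 with other leading genes. In dividing Atoh1-positive cells, Sox9 rose by 1.85 ± 0.22 on the log2 scale (edgeR adjusted p = 0.000495). In these cells Sox3 fell by 2.41, Sox4 by 1.46, Sox2 by 0.60 and Sox11 by 0.51. With 1 library left out, the change of Sox11 there ran from -0.64 to -0.28. Sox2 was called higher in non-dividing Atoh1-positive cells (0.82) and Mapt-high Hox-positive neurons (0.68, where DESeq2 gave an adjusted p of 0.0601), from 18.9 to 34.3 CPM and from 3.03 to 5.24 CPM in the mean. The latter class served above as the background, and whether its low values are free RNA or expression was not tested. With 1 library left out, the Sox2 change in non-dividing Atoh1-positive cells ran from 0.53 to 1.04. Sox9 was also called higher in non-dividing Atoh1-positive cells (1.19), Mapt-low Hox-positive neurons (1.88) and Mapt-high Hox-negative neurons (1.04). Sox4 fell by 2.13 in non-dividing Atoh1-positive cells and by 0.43 to 0.76 in 3 neuronal classes, and Sox11 fell by 1.30 in Mapt-high Hox-negative neurons. The remaining lower calls are given by their range with 1 library left out. In Mapt-low Hox-negative neurons these were Sox2 (-2.20 to -1.62) and Sox3 (-3.37 to -2.64). Sox3 was also called lower in Mapt-high Hox-negative neurons (-1.20 to -0.70). Sox11 was called lower in non-dividing Atoh1-positive cells (-1.38 to -0.57) and Mapt-high Hox-positive neurons (-0.48 to -0.42). In Mapt-low Hox-positive neurons, neither SoxC gene passed the test (0.11, 95% interval -0.06 to 0.29, for Sox4, and -0.13, -0.30 to 0.05, for Sox11).

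Next, genotypes were compared at E14.5. Sox2 was at 73.9, 43.3 and 41.6 CPM in control libraries 1, 2 and 3 and at 116, 86.2 and 101 CPM in Atoh1S193A/- libraries 1, 2 and 3. Sox9 was at 56.4, 32.4 and 36.5 CPM in control and 104, 62.5 and 106 CPM in Atoh1S193A/- libraries. For both genes each Atoh1S193A/- library lay above each control library. Sox3 was at 7.5, 3.94 and 4.85 CPM in control and 12.5, 6.06 and 8.26 CPM in Atoh1S193A/- libraries, which overlapped, although each Atoh1S193A/- library exceeded its littermate. The SoxC genes went the other way within litters, with Sox4 at 1404, 1638 and 1324 CPM in control and 1123, 1461 and 1118 CPM in Atoh1S193A/- libraries, and Sox11 at 2196, 2868 and 2044 against 1678, 2778 and 1683 CPM. In both cases the groups overlapped, and each Atoh1S193A/- library lay below its littermate.

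Without regard to litters, edgeR called 0 of 7 members (background 0.0%, 0 of 17598 genes), with an unadjusted p below 0.05 in 2 members and 2080 genes in all. The log2 change was 0.89 ± 0.23 for Sox2 (edgeR adjusted p = 0.329), 1.08 ± 0.27 for Sox9 (adjusted p = 0.328), 0.68 ± 0.33 for Sox3, -0.29 ± 0.13 for Sox4 and -0.27 ± 0.22 for Sox11. With 1 library left out, the log2 change of Sox11 ran from -0.53 to -0.0993. DESeq2 called Sox2 (adjusted p = 0.0176) and Sox9 (adjusted p = 0.0100) among 531 genes (3.02% of those tested). With the litter as a block, edgeR called 5 members, where the background was 14.6% (2566 genes, with 9.16% called higher and 5.42% lower). Sox2 (0.92, adjusted p = 0.0094), Sox9 (1.07, adjusted p = 0.0153) and Sox3 (0.66, adjusted p = 0.00665) were higher and Sox4 (-0.29, adjusted p = 0.0122) and Sox11 (-0.29, adjusted p = 0.0261) lower in Atoh1S193A/- embryos. Sox1 (0.11 ± 0.43) and Sox21 (-0.05 ± 0.34) were not called in any of these fits.

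The makeup of the libraries moved with these differences. Hox-positive ventricular progenitor-like cells, rich in Sox2 and Sox9, were 1.79 ± 0.523% of control and 6.64 ± 1.77% of Atoh1S193A/- cells at E14.5, and roof plate-like cells 3.97 ± 0.597% and 9.13 ± 2.41%. Choroid plexus-like cells were 0.761 ± 0.188% and 2.93 ± 2.33%, and Mapt-high Hox-positive neurons, poor in both genes, 19.8 ± 1.25% and 13.9 ± 1.90%. For each of these 4 classes the groups did not overlap. The exact permutation p was 0.1, the smallest that 3 libraries against 3 can give, and no other of the 16 classes at E14.5 reached it. In contrast, Hox-negative ventricular progenitor-like cells, the class with the highest levels of Sox1, Sox3 and Sox21, were 2.11 ± 1.03% and 2.32 ± 1.13%, which overlapped. The summed level of the 8 ventricular progenitor markers ranged over 1072 to 1843 CPM in control and 1563 to 2544 CPM in Atoh1S193A/- libraries, which overlapped, and all 8 had the higher mean in Atoh1S193A/- embryos. Markers of neurons went the other way without overlap (6115 to 7506 CPM over 8 genes in control and 4546 to 6023 CPM in Atoh1S193A/- libraries), and the 3 roof plate markers summed to 28.8 to 51.3 and 101 to 128 CPM.

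When each class of every library was given the mean share of that class over the 6 libraries, the log2 ratio of Sox2 went from 0.93 to 0.22 (70.8 ± 5.01 CPM in control and 82.5 ± 4.31 CPM in Atoh1S193A/- libraries, which still did not overlap, exact permutation p = 0.1). That of Sox9 went from 1.12 to 0.15 (exact permutation p = 0.4) and that of Sox3 from 0.72 to 0.30 (exact permutation p = 0.2). The SoxC ratios went from -0.24 to -0.03 for Sox4 and from -0.21 to -0.02 for Sox11, with exact permutation p = 0.7 for each. These permutations disregard litters. At equal shares each Atoh1S193A/- library was still above its littermate for Sox2, Sox3 and Sox9, and below it in 2 of 3 litters for Sox4 and Sox11. With 1 library left out, the equal-share ratio ran from 0.16 to 0.28 for Sox2, from 0.0461 to 0.28 for Sox9 (lowest without Atoh1S193A/- library 1 and highest without Atoh1S193A/- library 2) and from 0.13 to 0.41 for Sox3 (lowest without Atoh1S193A/- library 1 and highest without control library 1). It changed sign for both SoxC genes, from -0.12 to 0.0531 for Sox4 and from -0.21 to 0.12 for Sox11 (lowest without Atoh1S193A/- library 2 and highest without control library 2).

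**Figure D3:**
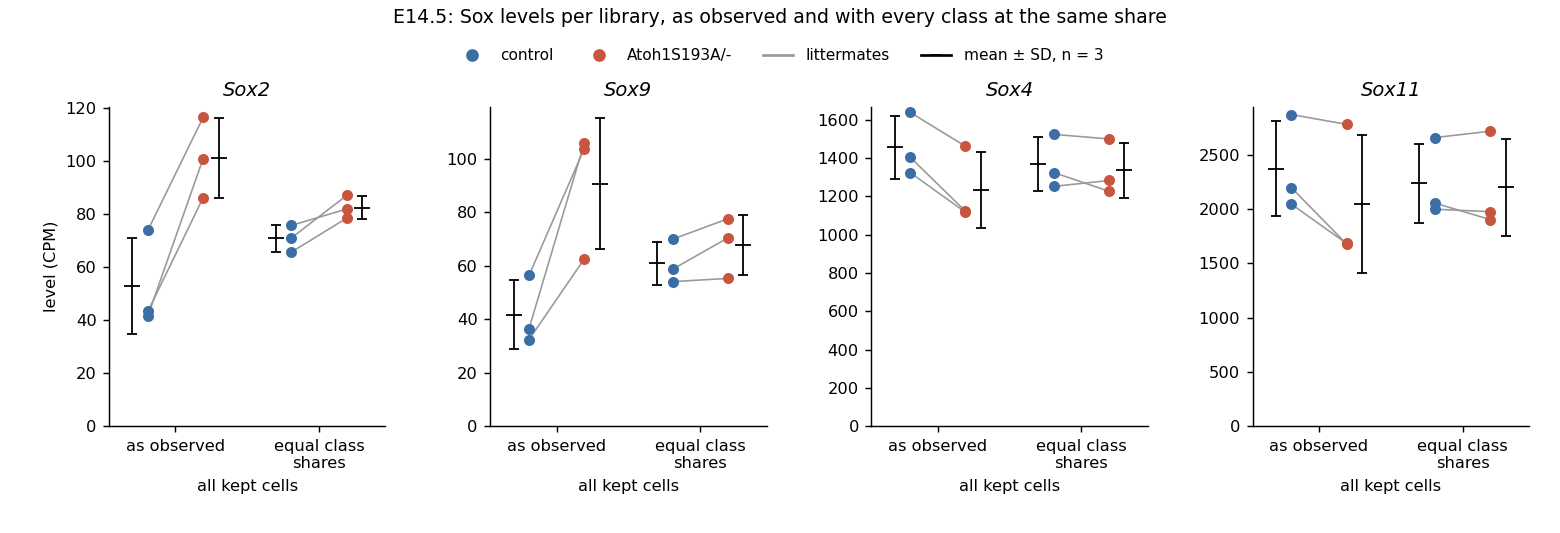
Levels of Sox2, Sox9, Sox4 and Sox11 (CPM, linear axis from 0) over all kept cells of the E14.5 libraries as observed (left of each panel) and with every class at the same share (right), 1 point per library, with lines that join littermates and bars for the mean ± SD (n = 3). As observed, every line went up for Sox2 and Sox9 and down for Sox4 and Sox11, and at equal shares the log2 ratio of Sox2 was 0.22 in place of 0.93.

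Within the classes themselves, 78 pairs of a member and a class in 13 classes were tested at E14.5, and 0 were called without regard to litters (background 0.0201%, 31 of 153970 pairs), with an unadjusted edgeR p under 0.05 in 7 member pairs and 4420 of all pairs, and 0 called by DESeq2 (background 0.104%). In Hox-positive ventricular progenitor-like cells, Sox2 was at 384, 320 and 332 CPM in control and 406, 387 and 438 CPM in Atoh1S193A/- libraries, and Sox9 at 361, 216 and 264 against 401, 274 and 358 CPM. Sox2 did not overlap and Sox9 did, and neither was called (0.20, 95% interval -0.06 to 0.46, and 0.26, -0.26 to 0.77). In roof plate-like cells, Sox2 was at 265, 223 and 225 against 270, 295 and 260 CPM, which overlapped (0.19, -0.05 to 0.42).

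With the litter as a block, 11 of the 78 pairs were called (5 higher and 6 lower), with a background of 1.05% (0.481% higher and 0.572% lower). Sox3 was higher in Hox-positive ventricular progenitor-like cells, where control libraries held 5.27, 2.32 and 2.5 CPM and Atoh1S193A/- libraries 13.5, 6.3 and 12.1 CPM. The libraries did not overlap, but the control values rested on 8, 6 and 4 UMIs. The log2 change was 1.59 with the block (edgeR adjusted p = 0.00804) and 1.69 without it (adjusted p = 0.809). Sox3 was also called higher in non-dividing Atoh1-positive cells (1.34). Sox2 was called higher in dividing Atoh1-positive cells (0.55), non-dividing Atoh1-positive cells (0.74) and Eomes-positive Mapt-low cells (0.57). Without the block and with 1 library left out, Sox2 ran from 0.47 to 1.14 in non-dividing and from 0.35 to 0.88 in Eomes-positive cells. In dividing Atoh1-positive cells Sox2 was at 34.0, 50.2 and 46.8 CPM in control and 52.4, 84.9 and 61.4 CPM in Atoh1S193A/- libraries, without overlap. Of the lower pairs, 4 were of Sox4, in dividing (-0.36), Eomes-positive (-0.39), roof plate-like (-0.37) and choroid plexus-like cells (-0.54), and 2 were of Sox11, in Atoh1-high (-0.32) and choroid plexus-like cells (-0.97). Without the block, the change of Sox4 was 0.0102 in roof plate-like cells without control library 2. In Atoh1-high cells Sox11 was at 3010, 2832 and 3365 CPM in control and 2391, 2552 and 2571 CPM in Atoh1S193A/- libraries, without overlap. Atoh1S193A/- library 2 held only 12 Eomes-positive cells and control library 1 only 19 choroid plexus-like cells, so those values are less precise.

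**Figure D4:**
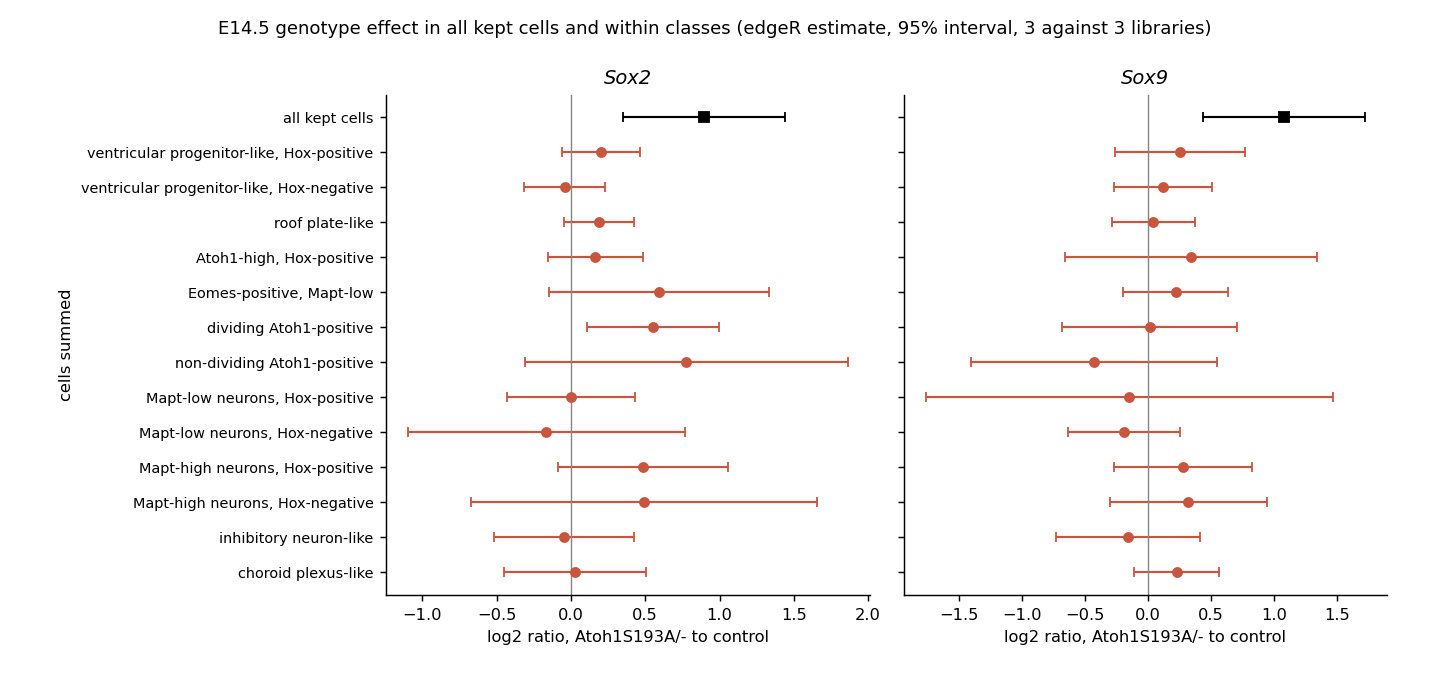
Fitted log2 ratio of Atoh1S193A/- to control libraries at E14.5 for Sox2 and Sox9 (edgeR estimate without the litter block, bars for the 95% interval, 3 libraries against 3), over all kept cells (black square) and within each class (red circles). Over all cells the ratio was 0.89 for Sox2 and 1.08 for Sox9, whereas in Hox-positive ventricular progenitor-like cells it was 0.20 and 0.26, with intervals that held 0. Classes differed in Sox2. In fits with 1 library left out (not drawn), it ran from 0.38 to 0.69 in dividing and from 0.47 to 1.14 in non-dividing Atoh1-positive cells. In Hox-negative ventricular progenitor-like cells it ran from -0.14 to 0.031.

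The genotypes were compared over all kept cells at E18.5 in the same way. Sox2 was at 19.0, 21.1 and 21.0 CPM in control and 26.4, 19.2 and 22.3 CPM in Atoh1S193A/- libraries, and Sox4 at 870, 855 and 900 against 876, 791 and 942 CPM, both with overlap. Sox9 was at 54.7, 53.8 and 52.3 against 58.6, 59.4 and 58.1 CPM and Sox11 at 1219, 1233 and 1262 against 1175, 1163 and 1218 CPM, where the groups did not overlap but the changes were small (0.12 ± 0.06 and -0.07 ± 0.07). Sox1 was at 1.93, 2.18 and 2.29 CPM in control and 4.45, 3.06 and 2.70 CPM in Atoh1S193A/- libraries, also without overlap (0.67 ± 0.21). By edgeR, 0 of 7 members were called (background 0.0%, 0 of 16747 genes), and DESeq2 called 0 members (background 0.137%). An unadjusted edgeR p under 0.05 was found for 335 genes and, of the members, for Sox1 alone. With the litter as a block, still 0 members were called (background 0.418%). At equal class shares the log2 ratio of Sox1 went from 0.67 to 0.57. With 1 library left out, the edgeR change of Sox1 ran from 0.44 to 0.81 and its equal-share ratio from 0.35 to 0.73.

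Within the 8 classes tested at E18.5, 2 of 41 pairs were called (background 0.145%, 137 of 94640 pairs), and the same 2 with the litter as a block (background 0.729%). DESeq2 called 3 (background 0.281%), those 2 and Sox1 in dividing cells. The first was Sox11 in unipolar brush cell-like cells, with 666, 702 and 703 CPM in control and 470, 478 and 494 CPM in Atoh1S193A/- libraries. No library overlapped, and the log2 change was -0.54 ± 0.06 (95% interval -0.68 to -0.40, edgeR adjusted p = 0.00416), in a class where 0.0597% of genes were called. After thinning, 70.4% to 70.8% of control and 57.3% to 60.8% of Atoh1S193A/- cells of this class had a Sox11 UMI. The other SoxC gene was not called there, with Sox4 at 2622, 2436 and 2343 CPM in control and 2680, 2763 and 2596 CPM in Atoh1S193A/- libraries (0.10, 95% interval -0.02 to 0.23). Split into the clusters of the class, which was decided after seeing the data, Sox11 was called in cells led by Bcl11b, Lmx1a and Mgat5 (1206, 1197 and 1115 against 837, 743 and 836 CPM, -0.55, edgeR adjusted p = 0.00253). In cells led by Tac2 and Eomes (693, 691 and 668 against 509, 599 and 479 CPM, -0.39) it missed the threshold (edgeR adjusted p = 0.0512), and in the cells led by Calb2 and Grp the libraries overlapped (303, 300 and 342 against 228, 215 and 350 CPM, -0.28). With the litter as a block all 3 clusters were called (edgeR adjusted p = 0.00437 for the Tac2-led and 0.0161 for the Calb2-led one). The Bcl11b-led cluster, highest in Sox11, held 151, 115 and 127 of 749, 530 and 441 control cells and 174, 37 and 72 of 1011, 306 and 367 Atoh1S193A/- cells of the class, and the part of these shares in the class value was not tested. Without control library 2 or Atoh1S193A/- library 2 the call over the class was lost (edgeR adjusted p = 0.0678 and 0.118), with changes of -0.53 and -0.54.

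**Figure D5:**
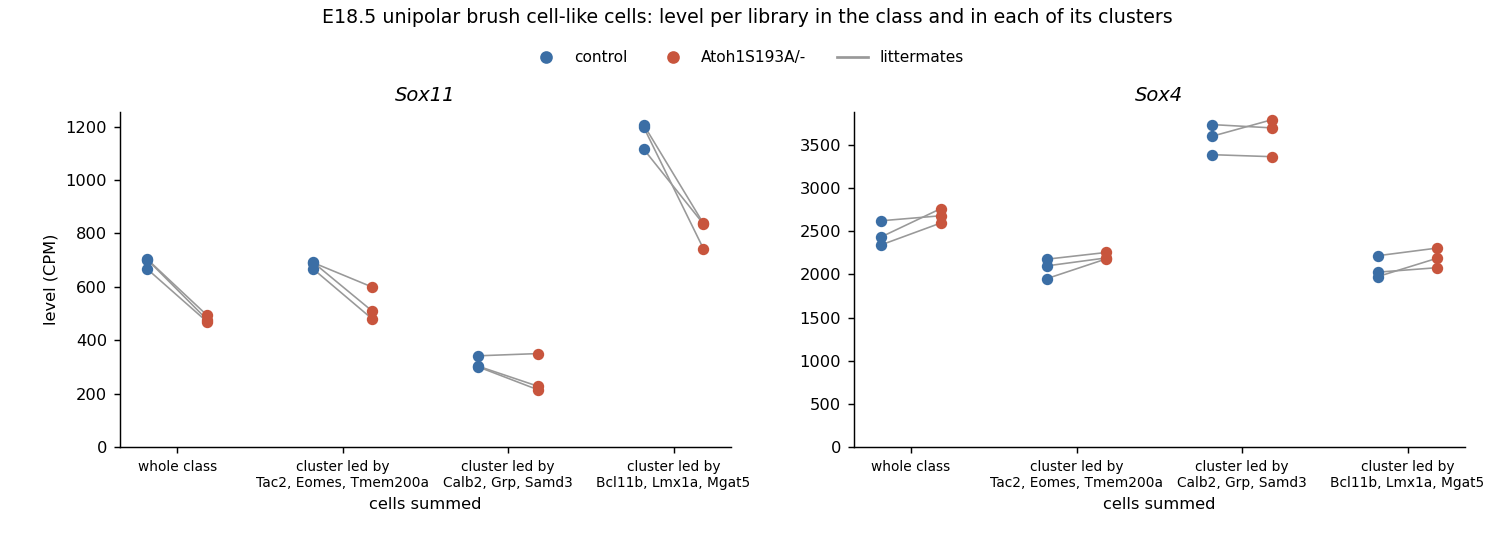
Levels of Sox11 and Sox4 (CPM, linear axis from 0) in unipolar brush cell-like cells at E18.5 and in each cluster of the class, 1 point per library, with lines that join littermates. Over the class, Sox11 lay between 666 and 703 CPM in control and between 470 and 494 CPM in Atoh1S193A/- libraries, while the Sox4 values of both genotypes lay between 2343 and 2763 CPM.

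The other pair was Sox1 in non-dividing Atoh1-positive cells, with 0.103, 0.529 and 0.286 CPM in control and 3.12, 2.89 and 1.49 CPM in Atoh1S193A/- libraries (3.09 ± 0.53 on the log2 scale, edgeR adjusted p = 0.0227), in a class where 0.382% of genes were called. The values did not overlap but rested on 1, 4 and 2 UMIs in control and 37, 17 and 6 UMIs in Atoh1S193A/- libraries. Most of these UMIs came from a small cluster led by Pvalb, Pdlim3 and Fst, with 0, 3 and 1 UMIs in 18, 23 and 20 control cells and 27, 10 and 3 UMIs in 75, 42 and 42 Atoh1S193A/- cells. Over pooled cells of this cluster, Sox1 was at 4.96 CPM in control and 20.2 CPM in Atoh1S193A/- embryos. Both the number of its cells and its Sox1 level were thus higher, and the part of each in the class value was not tested. In the cluster led by Hes5, Fgf8 and Mgarp, counts were 0, 1 and 1 against 8, 7 and 3 UMIs (0.111 and 1.27 CPM over pooled cells). The call was lost when any library but Atoh1S193A/- library 3 was left out, with changes of 2.57 to 3.74 (edgeR adjusted p = 0.0541 to 0.169), and at a clustering resolution of 2.0 (0.86, edgeR adjusted p = 0.313). In dividing Atoh1-positive cells, Sox1 was at 3.71, 4.15 and 3.92 CPM in control and 8.53, 5.93 and 5.17 CPM in Atoh1S193A/- libraries, without overlap (0.75 ± 0.17), but edgeR did not call it (adjusted p = 0.161), while DESeq2 did (adjusted p = 0.0497).

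An interaction term over the 12 embryonic libraries asked whether genotype acted alike at both stages. Without regard to litters, 0 of 7 members were called (background 0.0%, 0 of 18008 genes), with an unadjusted edgeR p under 0.05 for Sox2, Sox9 and 1290 genes in all, and 0 members called by DESeq2 (background 0.478%). With the litter as a block, 2 members were called (background 9.73%), Sox9 (-0.95 ± 0.17, edgeR adjusted p = 0.0208) and Sox4 (0.28 ± 0.06, edgeR adjusted p = 0.0245).

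Of 11 other Sox genes, 9 could be tested over all cells at E14.5 and E18.5, and 0 were called between genotypes by edgeR without the block or by DESeq2, with 1 at an unadjusted p under 0.05 at each stage. With the block, 2 of 9 were called at E14.5 (14.6% of all genes were), Sox13 (0.71) and Sox8 (0.85), a relative of Sox9 and Sox10, both higher. Between stages 5 of 9 were called (45.7% of all genes were). Sox5, a SoxD gene, was called higher (0.73) and Sox6 (-1.50), Sox13 (-1.50), Sox7 (-2.37) and Sox14 (-3.50) lower. Within classes 12 of 34 pairs were called between stages (6 higher and 6 lower), against 37.0% of all pairs. One of them was in dividing Atoh1-positive cells, where Sox18 rose by 5.18 ± 0.40 between stages (edgeR adjusted p = 8.5e-06). Of 15 partners and targets of Sox factors, 14 were tested over all cells and 0 were called between genotypes by edgeR without the block, with 4 at an unadjusted p under 0.05 at E14.5 and 0 at E18.5, where DESeq2 called 3 and 0. With the block at E14.5, 6 of 14 were called (14.6% of all genes were). Notch1 (1.19), the intermediate filament gene Nes (0.75), Tead2 (0.36) and the Sox9 target Col2a1 (1.29) were higher, and the neuronal genes Dcx (-0.37) and Tubb3 (-0.52), the latter a SoxC target, lower. Between stages 9 of 14 were called (45.7% of all genes were), of which 2 rose, Nfia (1.18), a gliogenic factor that Sox9 induces, and Mbp (0.84), and 7 fell, among them 4 POU partners, from Pou3f1 (-3.96) and Pou3f4 (-1.70) to Pou3f2 (-1.50) and Pou3f3 (-0.30). Within classes, edgeR without the block called 0 of 63 pairs of other Sox genes and 0 of 165 pairs of partners and targets at E14.5 (7 and 12 at an unadjusted p under 0.05, and 0 and 3 called by DESeq2). With the block, 2 of 63 and 15 of 165 were called (1.05% of all pairs were), with Notch1 higher in 4 classes and Dcx and Tubb3 lower in 4 each. At E18.5, 0 of 34 and 1 of 94 pairs were called (0.145% of all pairs were), the latter Pou3f4 in Mapt-low Hox-negative neurons (0.89, edgeR adjusted p = 0.0345), with 6 and 12 at an unadjusted p under 0.05 and 1 and 1 called by DESeq2. With the block, 2 of 34 and 2 of 94 were called (0.729% of all pairs were), Sox18 in dividing (0.78) and Sox8 (1.68) and Pou3f2 (0.35) in non-dividing Atoh1-positive cells and again Pou3f4, all higher. The median change of the 9 other Sox genes and the 14 partners and targets between genotypes at E14.5 was -0.04 and 0.04.

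Genes outside the family with the most similar levels over the 35 control class means were found among 9242 genes, by Pearson correlation of log2 CPM with 10 added. The means again included classes of very few cells. Sox2 was closest to Rfx4 (0.91), Itgb8 (0.89) and 3110082J24Rik (0.88), Sox3 to Itgb8 (0.82), Garem2 (0.81) and Lrp2 (0.80), and Sox1 to Fam181a (0.85) and Cyp26b1 (0.83). Sox21 was closest to Nkx6-2 (0.90), Timp4 (0.86) and Aldoc (0.85), and Sox9 to Trps1 (0.87) and Pard3b (0.85). Sox4 was closest to Slco5a1 (0.90), Sbk1 (0.88) and Zfp57 (0.87), and Sox11 to Cd24a (0.91), Dazap1 (0.90) and Kdm1a (0.90). Sox10 had Gpr17, Enpp6 and 1700047M11Rik at 0.99, with 1 class, the oligodendrocyte lineage of P5, setting the value.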

How the data were processed

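Single-cell libraries were prepared with the 10x Genomics 3' v3.1 chemistry and aligned by the authors to mm10 with Cell Ranger 5.0.1 per the labels, while the file headers of 2 libraries name 3.1.0. The deposited values are raw UMI counts per gene and cell, with no normalization. The 8 Sox genes and both gene lists were chosen with earlier results of these data known. Here, barcodes with at least 1000 genes and at most 5% mitochondrial UMIs were kept, and Scrublet removed 7.5% of them per library as doublets. Cells were clustered per stage with scanpy 1.11.5 (2000 variable genes, 30 principal components, 15 neighbors, Leiden resolution 1.0), and the marker limits of classes were set after cluster means were seen. UMIs were summed per library, or per library and class with at least 10 cells in each library, and tested with edgeR 4.0.16 (TMM, quasi-likelihood, robust) over all genes with Benjamini-Hochberg adjustment. The study tested cells, whereas libraries were tested here. DESeq2 1.42.0, other filters, another resolution, left-out libraries and a litter block were alternatives. Same-numbered libraries were littermates, and their deviations correlated at 0.65 to 0.86 in all 6 pairs. The tests were checked on simulated data. Named genes were the 8 members, called genes of both lists and the 3 most similar genes per member, except a few that are not reported here. Confidence intervals of 95% are those of the fits. Counting floors cover counting error only.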

Additional observations from a re-analysis of the deposited data

Results flagged for a closer look

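The genotype effect differed between E14.5 and E18.5 for 2 members when the litter was a block, as tested by the interaction of genotype and stage over 12 libraries. For Sox9, the difference in log2 change (E18.5 minus E14.5) was -0.95 (edgeR adjusted p = 0.0208), with every Atoh1S193A/- library above its littermate at both stages. For Sox4, the difference was 0.28 (edgeR adjusted p = 0.0245), with Atoh1S193A/- libraries below their littermates in 3 of 3 pairs at E14.5 and above them in 2 of 3 pairs at E18.5. Without the block neither passed (edgeR adjusted p = 0.581 and 0.747), and 9.73% of all genes were called with it. The share of Hox-positive ventricular progenitor-like cells also moved with genotype at E14.5. With every class at the same share within a stage, the log2 ratio of Sox9 was 0.15 at E14.5 and 0.11 at E18.5, against 1.12 and 0.13 as observed, and that of Sox4 was -0.03 and 0.0421, against -0.24 and -0.0088 as observed. The difference at equal shares was not tested.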

How the results depend on the processing

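Over all cells at E14.5, 0 members were called without the litter block, 2 by DESeq2 and 5 with the replicate block. The interaction gave 0 without the block and 2 with it. Within classes at E14.5, 0 pairs were called, 1 without a filter on low counts, 11 with the replicate block and 0 to 1 with a library left out. At E18.5, 2 pairs were called within classes, 3 without a filter on low counts, 1 at a resolution of 2.0 and 0 to 2 with a library left out. Of the stage effects, 6 members were called, 3 of 4 tested where genes had to be found in 10% of cells and 5 to 7 with a library left out, and within classes 14 to 23 pairs against 20. Without the 2 libraries of the older Cell Ranger version, 1 E14.5 control library was left. The stage change over all cells was then -0.75 for Sox1 and 0.41 for Sox9, against -1.17 and 0.29 with all embryonic control libraries. Changes that reversed their sign were of values not called without the block. At E14.5 without the 2 libraries of the older Cell Ranger version, which left 1 control library that is assumed to vary like the others, Sox21 was 0.38, Sox4 in dividing cells 0.0181 and Sox9 in Hox-negative ventricular progenitor-like cells -0.019, and at a resolution of 2.0 Sox2 there was 0.14. With 1 library left out, Sox21 ran from -0.30 to 0.22 and Sox1 from -0.26 to 0.65 at E14.5, Sox21 from -0.84 to 0.70 and Sox4 from -0.0723 to 0.0145 at E18.5, and Sox4 was 0.0001 at a mitochondrial limit of 10%. Likewise, the interaction ran from -0.77 to 0.75 for Sox21 and from -0.52 to 0.0612 for Sox3, and within E14.5 classes roof plate-like Sox4 ran from -0.68 to 0.0102, roof plate-like Sox9 from -0.11 to 0.19 and Sox2 in Hox-negative progenitors from -0.14 to 0.031. The cause of these changes was not tested. Sox10 was too low for a test in embryos, and low counts limit Sox1, Sox3 and Sox21 in most classes. The replicate block also called Sox11 lower in the Pvalb-led cluster of non-dividing cells at E18.5 (-0.43, edgeR adjusted p = 0.0366, against 0.113 without it). It changed no other call of the 8 genes beyond those given here and in the report. These alternatives included some chosen after seeing the data, such as the clusters of the unipolar brush cell-like class.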
